A study of Mus musculus with 30 samples.

Results

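Expression in haematopoietic stem and progenitor cells that carried 3 engineered lesions and had been exposed to an alkylating mutagen was compared with that in transplanted wild type cells. The groups were taken from the sample labels, and the comparison used 6 of the 30 libraries of a mouse RNA-seq series on therapy-related myeloid neoplasms, 3 per group. The cells were LSK cells (lineage-negative, Sca-1-positive, Kit-positive), the marrow fraction that holds stem cells and multipotent progenitors. They were sorted about 2 months after transplantation, before any myeloid disease.

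In the first group, called EAP with ENU, the transplanted marrow was Egr1+/- and Apc del/+, carried an shRNA against Trp53, and both donor and recipient mice had received ENU (N-ethyl-N-nitrosourea). In the second group, transplanted wild type, wild type marrow carried an shRNA against luciferase, went into wild type recipients, and no ENU was given. All groups were C57BL/6, and the recipients of EAP with ENU marrow were also wild type. The genotype, the Trp53 shRNA and ENU differed together between the groups, so their shares in any difference cannot be told apart here. The other LSK groups, also of 3 libraries each, served as context: EAP had the same genotype and Trp53 shRNA without ENU, and untransplanted wild type had no graft, shRNA or ENU. The labels do not say whether a library was 1 mouse or a pool, and if libraries shared a source the p-values measure technical spread only.

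Loss of the long arm of chromosome 5 is a frequent lesion of human therapy-related myeloid neoplasms, and EGR1 and APC lie on that arm. EGR1 is an early growth response transcription factor that restrains stem cell proliferation, APC holds back Wnt signalling by promoting the breakdown of beta-catenin, and p53, the product of Trp53, halts or kills cells with damaged DNA. ENU transfers ethyl groups to DNA bases, and the resulting mispairing leads to point mutations.

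Sequencing depth is unknown for these libraries, because the deposited values are a normalised signal and not counts. The summed signal was 983744 to 1034526 in EAP with ENU and 942292, 954538 and 1206739 in transplanted wild type 1 to 3. Transplanted wild type 3 stood apart, as did untransplanted wild type 2 and EAP 1, by the highest total and the lowest median value of its group. EAP 1 also carried a transplant label of wild type marrow that goes against its other labels. Markers of the sorted cells were present in all 6 libraries compared: Kit lay at 170 to 308, Ly6a (Sca-1) at 107 to 245, Cd34 at 981 to 1627 and Cd48 at 417 to 576. Cd3e, a marker of mature T cells, was low, at most 5.5.

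Trp53, the shRNA target (chromosome 11, 69580359 to 69591873, mm10), was 308, 370 and 247 in transplanted wild type and 70.6, 173 and 76.1 in EAP with ENU. Every EAP with ENU library lay below every transplanted wild type library. The log2 difference was -1.63 ± 0.38 (SE), with an adjusted p of 0.732 (limma, adjusted over all genes tested), so the difference did not pass the test. Egr1 was 188, 137 and 133 in transplanted wild type and 308, 57.7 and 77.4 in EAP with ENU, so the groups overlapped (-0.43 ± 0.77). Apc was 6.13, 8.15 and 4.31 against 7.79, 6.51 and 7.21, again with overlap (0.22 ± 0.40). The RNA level of neither haploinsufficient gene separated the groups, and transcripts of a mutant allele may still be counted to its gene.

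**Figure D1:**
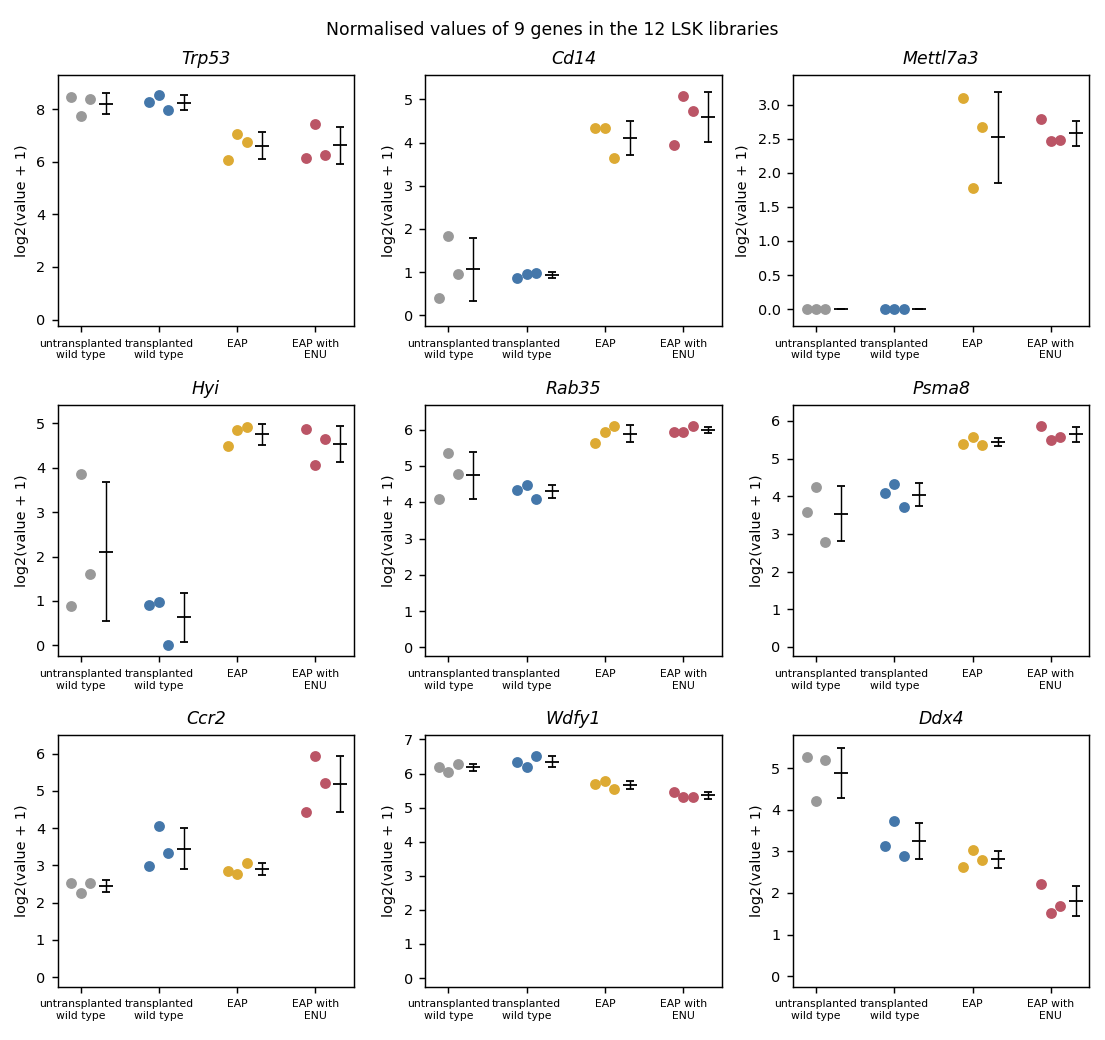
Normalised values, as log2(value + 1), of 9 genes in the 12 LSK libraries; points are libraries and the black bars show the mean and SD of each group (n = 3). Cd14 and Mettl7a3 are low or listed at 0 in both wild type groups and higher in all 6 libraries with the engineered lesions, while Ccr2 is highest in EAP with ENU.

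Of 11730 genes tested, 2 passed at an adjusted p under 0.05, both higher in EAP with ENU (0.0171% of genes); 376 had an unadjusted p under 0.05 (3.21%) and 2171 did not overlap between the groups in either direction (18.5%). They were Cd14, the co-receptor that hands bacterial lipopolysaccharide to TLR4 on myeloid cells, and Mettl7a3, a member of the methyltransferase-like 7A family. Cd14 (chromosome 18, 36725067 to 36726798) was 0.81, 0.954 and 0.975 in transplanted wild type and 14.4, 32.6 and 25.6 in EAP with ENU. Its means were 0.913 ± 0.0895 and 24.2 ± 9.2 (SD, n = 3 each), a log2 difference of 3.65 ± 0.41 (SE) with a limma adjusted p of 0.0198. EAP without ENU lay at 19.2, 19.4 and 11.6 and untransplanted wild type at 0.319, 2.57 and 0.945, so the high values were seen in every library with the engineered lesions, with or without ENU. Cd14 lies on the chromosome of the engineered genes Egr1 (34859823 to 34864984) and Apc (34220924 to 34322552). Whether this position contributed to its values was not tested.

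Mettl7a3 (chromosome 15, 100334929 to 100340375) was listed at 0 in all 6 wild type libraries, transplanted or not, and at 5.91, 4.54 and 4.59 in EAP with ENU. The log2(value + 1) difference was 2.58 ± 0.32 (SE), with a limma adjusted p of 0.0284. The gene was kept for testing only through the libraries with the engineered lesions, and libraries at 0 add no spread to the SE. The p-values of this gene may therefore be too small. EAP without ENU had 7.55, 2.44 and 5.4. Mettl7a2, its neighbour and close relative, was listed at 0 in all 3 transplanted wild type libraries and at 4.79, 1.28 and 5.35 in EAP with ENU, and did not pass (adjusted p = 0.732). Mettl7a1, of the same cluster, was 85.7, 110 and 73.7 against 106, 73.8 and 110 and overlapped. Reads of these similar copies may be divided between them, so the split among the 3 members is uncertain.

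The calls depended on which libraries were fitted, while the differences stayed about as large. Without transplanted wild type 3, the library that stands apart, the log2 difference of Cd14 was 3.67 (adjusted p = 0.155) and that of Mettl7a3 was 2.58 (adjusted p = 0.211). Without untransplanted wild type 2 and EAP 1 as well, the adjusted p-values were 0.0196 and 0.0347. Leaving out transplanted wild type 1 or 2, or EAP with ENU 2 or 3, also ended both calls, with log2 differences of 3.40 to 3.66 for Cd14 (adjusted p 0.0865 to 0.194) and 2.58 to 2.64 for Mettl7a3 (0.149 to 0.237). Without EAP with ENU 1, Cd14 still passed (0.0295) and Mettl7a3 did not (0.195); without EAP 1, both passed (0.0157 each). A replicate block ended the call of Mettl7a3 (0.111) and a pseudocount of 0.1 that of Cd14 (0.0595).

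**Figure D2:**
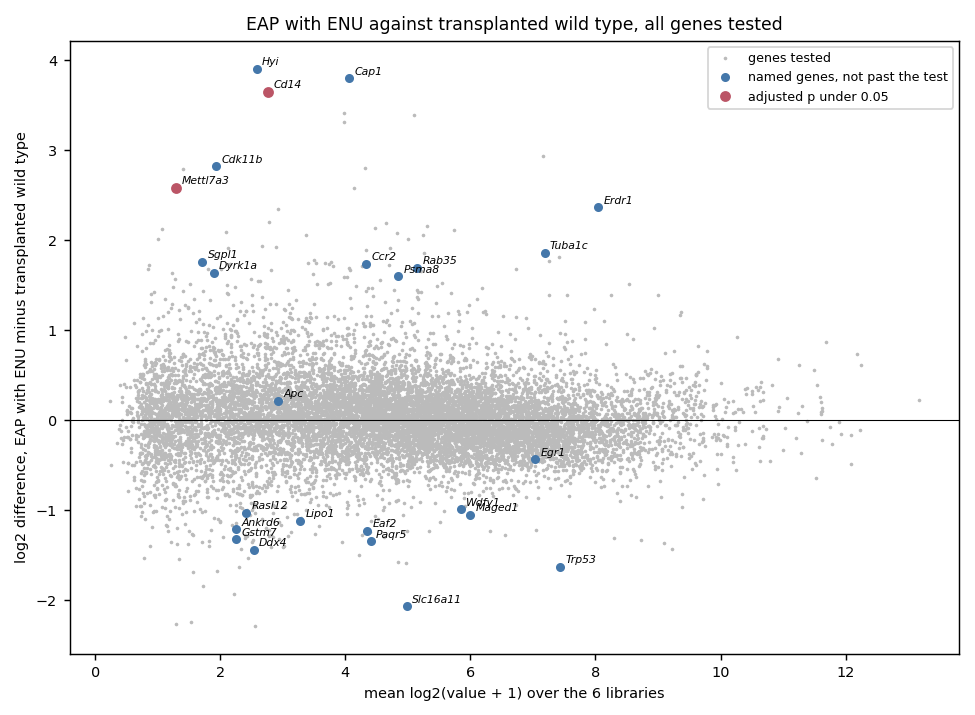
Log2 difference between EAP with ENU and transplanted wild type (vertical axis) against the mean log2(value + 1) of the 6 libraries (horizontal axis) for the 11730 genes tested. The 2 genes that passed, Cd14 and Mettl7a3, are in red; other named genes, in blue, include Hyi and Cap1, whose differences of 3.91 and 3.80 are larger than that of Cd14 but whose libraries spread more widely.

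Further genes lay higher in EAP with ENU without passing; 210 genes had an unadjusted p under 0.05 in that direction (1.79%). Hyi is named for a putative hydroxypyruvate isomerase, but the annotation used lists it as a polymorphic pseudogene. It was 0.884, 0.95 and 0 in transplanted wild type and 28.3, 15.8 and 24.2 in EAP with ENU (3.91 ± 0.62, adjusted p = 0.205). Rab35, a small GTPase of endosome recycling, was 19.1, 21.1 and 16.2 against 60.4, 60.1 and 67.2 (1.69 ± 0.30, adjusted p = 0.287). Psma8, a proteasome subunit best known from the testis, was 15.9, 19.2 and 12.2 against 57.2, 44 and 47.1 (1.60 ± 0.34). For each of these 3 genes no library of one group reached the other group. The EAP libraries without ENU were also high, with 21.4 to 29.4 for Hyi, 48.8 to 67.7 for Rab35 and 40.4 to 46.8 for Psma8. Rab35, Hyi, Cd14, Mettl7a3 and other genes were already known from earlier results of these data to mark EAP cells, so their position here is not independent evidence.

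Ccr2 had another pattern. This chemokine receptor, which guides inflammatory monocytes, was 6.89, 15.5 and 9.09 in transplanted wild type and 20.7, 60 and 36.2 in EAP with ENU (1.74 ± 0.39, adjusted p = 0.732). EAP without ENU had only 6.15, 5.88 and 7.43, below all 3 EAP with ENU libraries, as 12.7% of all genes were separated between these groups in either direction (2.30 for EAP with ENU minus EAP, adjusted p = 0.696, not passed). Tuba1c, an alpha-tubulin gene, was 120, 109 and 32.7 in transplanted wild type and 281, 279 and 269 in EAP with ENU, again above all EAP libraries. The lowest of its control values was in the library that stands apart.

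The remaining genes named on the higher side were Erdr1, Dyrk1a, Cdk11b, Sgpl1 and Cap1. Erdr1, whose copies are hard to place in the genome, was 148, 90.4 and 112 against 645, 477 and 688, and untransplanted wild type, at 373 to 409, also lay above the transplanted controls. Dyrk1a, a dual-specificity kinase, was 1.83, 0.764 and 0.884 against 5.93, 6.61 and 4.35. Cap1, an actin regulator made by nearly every cell, was 0.0515, 25.6 and 2.16 in transplanted wild type. Such near-zero values of a widely expressed gene may be failed estimates, and the same holds for Cdk11b, at 1.45e-07, 0.284 and 1.31.

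No gene passed as lower in EAP with ENU (166 had an unadjusted p under 0.05 in that direction, 1.42% of genes tested). The lower genes with the smallest p included Wdfy1, an adaptor of TLR3 and TLR4 signalling, and Gstm7, a glutathione transferase. Wdfy1 was 79.4, 72.2 and 90.2 in transplanted wild type and 43.1, 38.5 and 38.4 in EAP with ENU (-0.99 ± 0.18, adjusted p = 0.357). Its values in EAP with ENU kept within a narrow band beneath all 6 wild type libraries. Gstm7 was 5.6, 6.91 and 7.19 against 2.87, 1.57 and 1.75 (-1.32 ± 0.25, adjusted p = 0.417), and untransplanted wild type, at 1.62 to 1.96, was as low as EAP with ENU.

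Eaf2, an elongation factor partner, was 27.5, 32.5 and 30.7 in transplanted wild type and 11.4, 9.72 and 16.6 in EAP with ENU. Its level in untransplanted wild type, 5 to 6.13, was below both, so its position in EAP with ENU depends on the control chosen. Ddx4, the germ cell RNA helicase, was 7.77, 12.3 and 6.42 in transplanted wild type and 3.66, 1.87 and 2.23 in EAP with ENU (-1.44 ± 0.36, adjusted p = 0.732). Untransplanted wild type had 37.8, 17.4 and 35.4, the highest of the 4 groups. Maged1, an adaptor of the MAGE family, was 79.8, 77.7 and 122 against 44.9, 44.9 and 40.3. Paqr5, Lipo1, Ankrd6, Slc16a11 and Rasl12 were further genes named on this side, with log2 differences of -1.34, -1.12, -1.21, -2.07 and -1.03.

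The genes of neutrophil primary granules and myeloid progenitors stood mostly higher in EAP with ENU. These genes encode the serine proteases and other proteins that promyelocytes pack into their first granules, and the receptors and transcription factors of the cells on the way there. In 17 of 36 tested members (47.2%) all EAP with ENU libraries lay above all transplanted wild type libraries, and in 0 members below. Over all genes tested, 9.9% were separated in that way as higher and 8.61% as lower. The median log2 difference of the list was 0.67, against 0.01 for all genes, and 30 members had a positive difference. None passed the limma test on its own, and 6 had an unadjusted p under 0.05. Without transplanted wild type 3 the list's median was 0.56, and 22 members were separated as higher, beside 16.8% of all genes.

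Ctsg, encoding cathepsin G, was 267, 368 and 318 in transplanted wild type and 626, 960 and 944 in EAP with ENU (1.39 ± 0.47). Prtn3, encoding proteinase 3, was 394, 492 and 420 against 749, 1228 and 1014 (1.17 ± 0.41). Elane, encoding neutrophil elastase, was 196, 581 and 719 against 869, 1070 and 1091 (1.21 ± 0.84), with a wide spread among the controls. Mpo, encoding myeloperoxidase, was 2305, 3516 and 5712 against 4908, 6951 and 6295 and overlapped. Among progenitor genes, Ms4a3 was 31, 76.6 and 83.1 against 110, 303 and 203. Cebpa, the transcription factor that commits progenitors to the granulocyte and monocyte line, was 15, 16.1 and 3.85 against 22.9, 26.8 and 25.8. Trem3, a myeloid receptor, was 2.98, 4.97 and 13.2 against 16.2, 34.5 and 19.8.

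In bulk libraries a higher share of such progenitors and more RNA per cell cannot be told apart. Genes of late neutrophil maturation did not stand higher as a list: 3 of 17 were separated as higher and 1 as lower (17.6 and 5.88%, beside 9.9 and 8.61% of all genes), and the median of -0.03 was -0.21 without transplanted wild type 1 and 0.01 without 3. Their summed level was 1107 to 1358 in EAP with ENU and 1238 to 1669 in transplanted wild type. S100a8, abundant in mature neutrophils, was 5.46, 8.64 and 5.57 against 3.36, 6.49 and 5.4. The summed level of the primary granule list was 17477 to 21748 in EAP with ENU, 10936 to 16080 in transplanted wild type and 7984 to 8638 in untransplanted wild type. In EAP without ENU it was 31422, 7406 and 11000 in EAP 1 to 3. EAP 1, which stands apart and carries the conflicting label, lay above EAP with ENU. EAP 2 and 3 lay below every EAP with ENU library.

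The promoter stretches below show the neighbouring protease genes Elane and Prtn3, which were separated in the same direction. They are given on the sense strand in GRCm38.p6 (RefSeq), on chromosome 10 at chr10:79886202-79886261 and chr10:79879547-79879606, both on the plus strand and ending before the annotated start. Capitals mark GAGGAAGT, letters that the myeloid factor PU.1 is known to recognise, searched on both strands (the other strand reads ACTTCCTC).
Elane: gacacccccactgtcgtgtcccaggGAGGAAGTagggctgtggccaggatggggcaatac
Prtn3: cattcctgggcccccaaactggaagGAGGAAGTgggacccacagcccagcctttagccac
The match lay 77 bases before the start in Elane and 87 bases before it in Prtn3. These letters were found in 4 of the 28 list members with a promoter in the table, 14.3%, and in 3.69% of all 27025 genes with one. Elane and Prtn3 were the 2 separated members among those 4, beside 47.2% of the whole list separated as higher. Whether the letters bear on the difference was not tested.

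**Figure D3:**
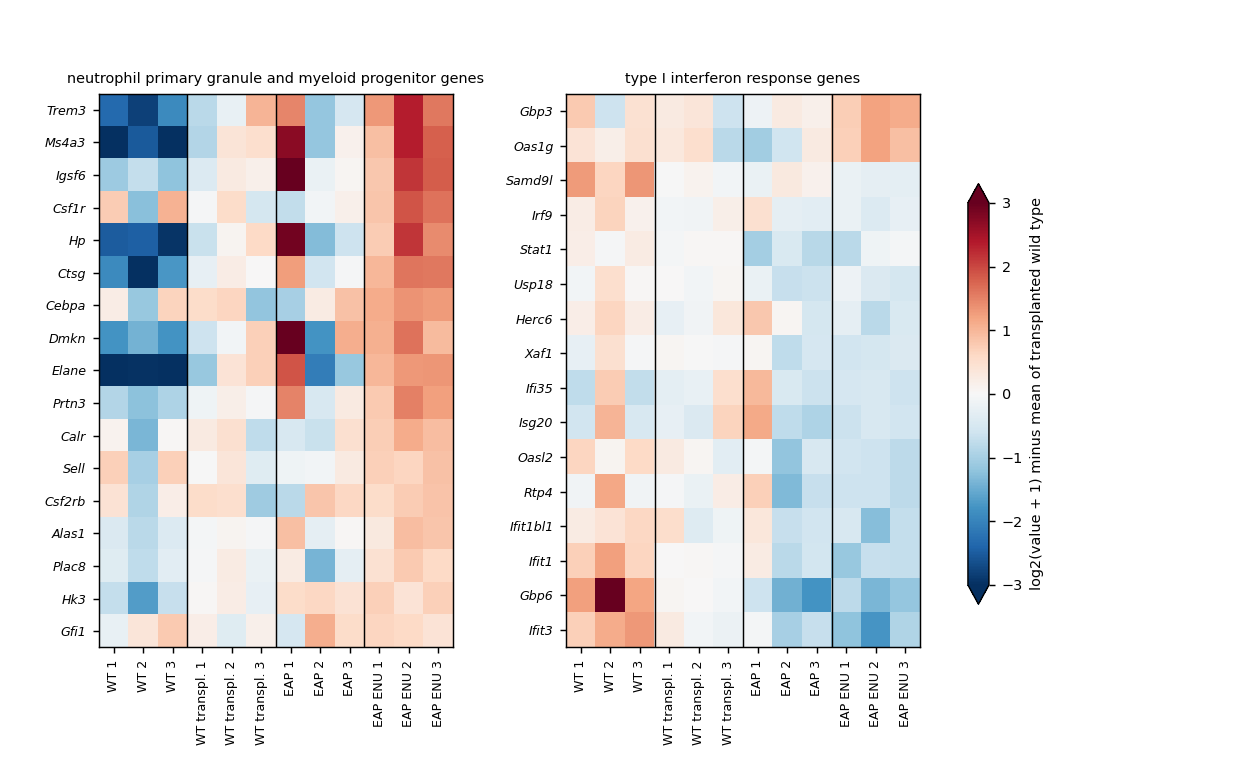
Members of the primary granule and interferon lists whose values do not overlap between EAP with ENU and transplanted wild type, in all 12 LSK libraries; colour is log2(value + 1) minus the mean of the 3 transplanted wild type libraries. In the left panel the 17 granule genes are red in EAP with ENU and mostly blue in untransplanted wild type; in the right panel 14 of 16 interferon genes are blue in EAP with ENU.

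Monocyte and macrophage markers were divided. Of 32 tested, 7 were separated as higher and 7 as lower (21.9% each, beside 9.9% and 8.61% of all genes), with a median of -0.03 that was 0.01 without transplanted wild type 3. Beside Cd14 and Ccr2, the higher members included Csf1r, the M-CSF receptor (15.2, 23.5 and 10.5 against 28.4, 60.7 and 50.8), and Cx3cr1, the fractalkine receptor (2.65, 3.22 and 1.24 against 3.85, 8 and 7.02). F13a1, coagulation factor XIII of monocytes and platelets, was 10.9, 25 and 20.4 against 44.6, 139 and 90.4. Among the lower members, C1qb and C1qc, which encode chains of complement C1q, had log2 differences of -1.41 ± 0.40 and -1.29 ± 0.56, and Slc40a1, the iron exporter ferroportin, had -0.95 ± 0.39. C1qb was 10.6, 14.4 and 11.3 in transplanted wild type and 5.76, 4.76 and 2.03 in EAP with ENU. Apart from Cd14, no member of the list passed.

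Megakaryocyte and platelet markers were separated as higher in 10 of 36 (27.8%, beside 9.9% of all genes) and as lower in 2 (5.56%, beside 8.61%). Their median was 0.19, and 0.07 without transplanted wild type 2. Pf4, platelet factor 4, was 50.4, 56.5 and 63.1 in transplanted wild type and 76.5, 135 and 95.8 in EAP with ENU (0.81 ± 0.36). Vwf, von Willebrand factor, which also marks platelet-biased stem cells, was 3.44, 4.46 and 0.857 against 5.86, 18.5 and 7.51 (1.55 ± 0.63). Sdpr, a caveolar protein gene, was 6.71, 6.04 and 6.29 against 8.89, 21.4 and 18.1. In the other direction, Dok2, an inhibitory adaptor of tyrosine kinases, was 180, 153 and 296 against 98.7, 74.6 and 86.9 (-1.22 ± 0.40). None of these passed. Without transplanted wild type 3, 16 members were separated as higher (44.4%, beside 16.8% of all genes).

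Haematopoietic stem cell genes gave 10 separated as higher and 4 as lower of 52 (19.2 and 7.69%, beside 9.9 and 8.61% of all genes). Their median was 0.17, with 0.11 without transplanted wild type 3 and 0.04 with a term for the libraries that stand apart. Cdkn1c, encoding the cell cycle inhibitor p57 that keeps stem cells quiescent, was 17.4, 5.69 and 16.8 in transplanted wild type and 2.24, 4.82 and 0.00153 in EAP with ENU (-2.28 ± 0.67). The groups did not overlap, but the lowest control and the highest treated value were close. Ltb, encoding lymphotoxin beta, was 122, 116 and 216 against 76.4, 50.6 and 54. Slamf1, the CD150 marker of long-lived stem cells, was 10.7, 8.43 and 5.79 against 10.9, 19.8 and 16.1, and Sult1a1 was 2.37, 3.35 and 3.19 against 5.49, 10.8 and 12.6.

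Type I interferon response genes lay on both sides, with more separated as lower than as higher. Of 62 tested, 14 were separated as lower (22.6%, beside 8.61% of all genes) and 2 as higher (3.23%, beside 9.9%). The median was -0.05, and 0.01 without transplanted wild type 2. The count depended on transplanted wild type 3: without it, 34 members were separated as lower, beside 16.8% of all genes, and the median was -0.23. Ifit3, whose product blocks viral RNA translation together with its relatives, was 11.9, 9.11 and 8.39 in transplanted wild type and 3.67, 2.15 and 4.69 in EAP with ENU (-1.29 ± 0.33, adjusted p = 0.781). Ifit1 was 23.7, 23.9 and 22.9 against 10.2, 14.2 and 14 (-0.84 ± 0.30). Gbp6, an interferon-induced GTPase, was 8.68, 8.4 and 7.85 against 4.44, 2.59 and 3.18. Oasl2 was 77.8, 67.3 and 51.8 against 42.9, 41.6 and 37.1. Irf7, the transcription factor that amplifies the response, was 140, 152 and 78.5 against 85.3, 65.5 and 71 and overlapped because of transplanted wild type 3. The 2 members on the other side were Gbp3 (53.8, 57.8 and 28.7 against 75.9, 105 and 97.7) and Oas1g (5.78, 6.62 and 2.07 against 7.96, 11.6 and 9.13).

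Promoter stretches of 2 members on each side are shown because both sides hold core letters of the interferon-stimulated response element, the promoter site bound by the factor complex that interferon activates. They are given 5′ to 3′ on the sense strand (GRCm38.p6, RefSeq) and end before the annotated start. Ifit3 is at chr19:34583347-34583439 and Ifit1 at chr19:34640759-34640836, both on the plus strand. Gbp3 is at chr3:142559973-142560037 on the plus strand and Oas1g at chr5:120887614-120887659 on the minus strand. Capitals mark AANNGAAAC, or GTTTCNNTT where the match is on the other strand, and matches may overlap.
Ifit3: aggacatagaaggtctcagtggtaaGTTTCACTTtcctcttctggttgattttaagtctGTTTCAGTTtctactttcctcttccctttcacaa
Ifit1: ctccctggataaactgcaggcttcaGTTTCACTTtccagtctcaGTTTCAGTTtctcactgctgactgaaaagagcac
Gbp3: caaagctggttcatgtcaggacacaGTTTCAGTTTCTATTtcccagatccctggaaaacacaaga
Oas1g: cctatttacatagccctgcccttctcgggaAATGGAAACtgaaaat
The letters occurred in 30 of the 48 interferon genes with a promoter in the table, 62.5%, against 6.61% of all genes with one. Of those 30 genes, 5 were separated as lower and 2 as higher, beside 8.61 and 9.9% of all genes tested. Whether the letters bear on either direction was not tested.

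Most lymphoid genes that separated the groups were lower in EAP with ENU. Of 32 T and NK cell markers tested, 8 were separated as lower (25%, beside 8.61% of all genes) and 0 as higher. The list's median was -0.41, and -0.17 without transplanted wild type 2. Lck, the kinase that starts T cell receptor signalling, was 93.3, 104 and 183 in transplanted wild type and 73.1, 43.5 and 41.7 in EAP with ENU (-1.23 ± 0.35). Cd247, the receptor's zeta chain, was 7.61, 9.92 and 7.02 against 4.02, 2.38 and 1.8 (-1.33 ± 0.41). Tcf7, a transcription factor of early T cells and of Wnt signalling, was 5.97, 10.6 and 5.71 against 1.77, 2.84 and 2.61 (-1.27 ± 0.43). The summed level of the list was 1361 to 1619 in EAP with ENU, 1574 to 2852 in transplanted wild type and 1146 to 1613 in untransplanted wild type. The ranges of both wild type groups overlapped, and the highest value was in a transplanted library.

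B cell and plasma cell markers had a median of -0.59, with 1 of 22 separated as lower (4.55%, beside 8.61% of all genes). The median was -0.36 without transplanted wild type 2 and -0.90 without 1. MHC class II genes, which present antigen on B cells, dendritic cells and macrophages, had a median of -0.70 and a negative difference in 10 of 10. Of the 10, 1 was separated as lower (10%, beside 8.61% of all genes). The median was -0.35 without transplanted wild type 2 and -0.97 without 1. The separated gene was H2-DMb2 (23.9, 38 and 38.4 against 20.7, 11.2 and 13.7). The summed MHC class II level was 1056 to 1638 in EAP with ENU and 1454 to 3820 in transplanted wild type, so the ranges overlapped. Of 28 lymphoid priming genes, 4 were separated as lower and 2 as higher (14.3 and 7.14%, beside 8.61 and 9.9% of all genes), and Ets1, a transcription factor of lymphoid cells, was 20.8, 27.3 and 27.4 against 16.6, 7.87 and 11.9. Whether a smaller part of contaminating lymphoid cells contributed to these values was not tested.

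**Figure D4:**
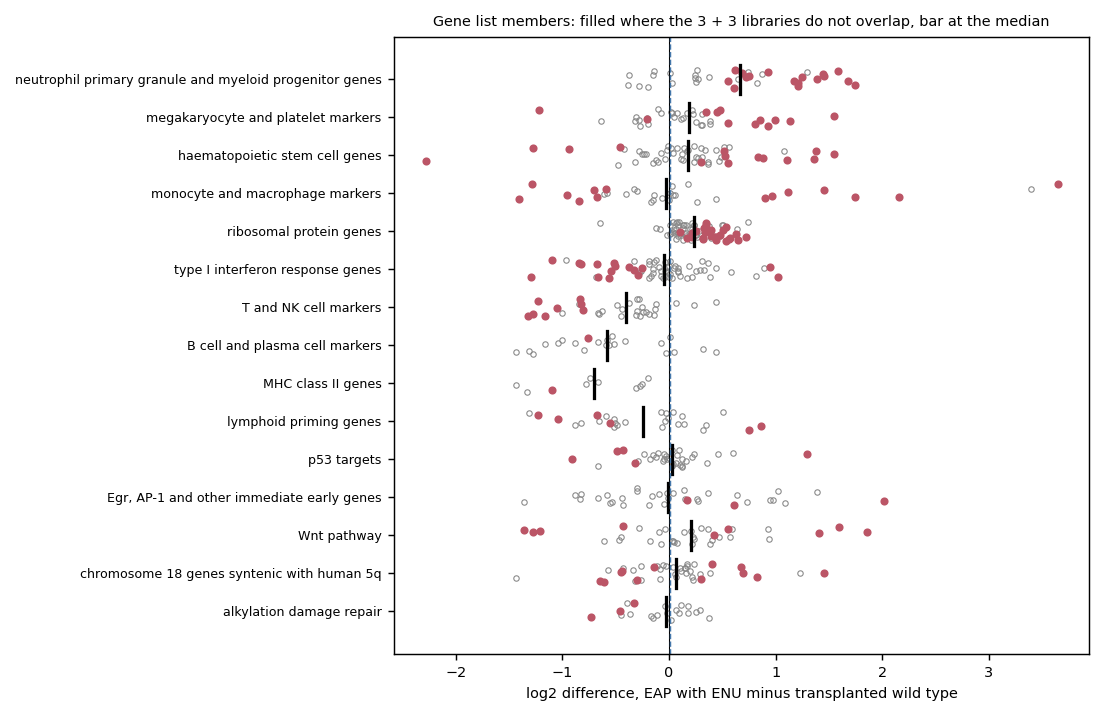
Log2 difference, EAP with ENU minus transplanted wild type, for each tested member of 15 gene lists; filled red points are members whose 3 against 3 libraries do not overlap, open points the others, the black bar is the list median and the dashed line the median of all genes (0.01). The primary granule list is shifted upward, with a median of 0.67, and the MHC class II list downward, with a median of -0.70.

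For the pathways of the engineered genes, members lay on both sides and none passed. Of 35 p53 target genes, 1 was separated as higher (2.86%, beside 9.9% of all genes) and 4 as lower (11.4%, beside 8.61%), with a median of 0.02. Without transplanted wild type 3, 9 were separated as lower (25.7%, beside 16.8% of all genes) and the median was -0.09. Cdkn1a, encoding the p21 cell cycle inhibitor, was 29, 31.1 and 44.3 in transplanted wild type and 71.6, 35 and 33.9 in EAP with ENU. Mdm2, the p53 ubiquitin ligase, was 66, 62.7 and 52.8 against 60.3, 53.9 and 67.7. Both overlapped. Sesn1, a stress-induced regulator of growth signalling, was 211, 213 and 212 against 178, 120 and 158 (-0.49 ± 0.24), and Phlda3, a brake on AKT, was 9.61, 13.1 and 20.6 against 6.1, 8.21 and 6.46. Pmaip1, encoding the cell death protein NOXA, lay higher, at 5.03, 3.79 and 4.64 against 12.9, 16.5 and 8.77 (1.29 ± 0.50). In EAP without ENU it was 9.56 to 16.

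Immediate early genes, among them the Egr and AP-1 factors, differed within EAP with ENU more than between groups. Fos was 1747, 337 and 409 in EAP with ENU 1 to 3 and 1182, 1095 and 1158 in transplanted wild type. Jun was 1201, 325 and 317 against 856, 864 and 934. In both genes EAP with ENU 1 lay above all controls and the other two libraries below, as for Egr1. The median of the 34 genes was -0.01, with -0.45 without EAP with ENU 1 and 0.13 without EAP with ENU 2.

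Wnt pathway genes gave 5 separated as higher and 4 as lower of 35 (14.3 and 11.4%, beside 9.9 and 8.61% of all genes). Without transplanted wild type 3 they gave 6 and 10 (17.1 and 28.6%, beside 16.8% of all genes in each direction). Axin1, the scaffold on which beta-catenin is marked for breakdown together with Apc, was 36.6, 11.2 and 16.5 against 67.8, 76.9 and 70.9 (1.86 ± 0.75). Dvl1, which relays the signal from the Wnt receptor, was 16, 4.81 and 7.43 against 23, 29.8 and 29.9. Tcf7l2, a nuclear partner of beta-catenin, was 8.78, 4.95 and 11.9 against 2.38, 1.95 and 3.46 (-1.36 ± 0.43), and Tcf7 lay on the same side. None passed. The list's median of 0.21 was -0.002 without transplanted wild type 3 and 0.37 without 2.

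Of 20 genes for the repair of alkylated DNA, 0 were separated as higher, beside 9.9% of all genes. Of 20, 3 were separated as lower, with a median of -0.03 that was 0.005 without transplanted wild type 1. Mgmt, whose product removes alkyl groups from guanine, was 40.4, 36.2 and 41.6 in transplanted wild type and 31.1, 25.8 and 28 in EAP with ENU (-0.46 ± 0.51). Alkbh3, an alkylation-reversing dioxygenase, was 84.6, 72.3 and 91.3 against 71.8, 61.2 and 64.2 (-0.33 ± 0.20). The share separated as lower, 15% for alkylation repair, compares with 8.61% of all genes, and none of these genes passed.

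Ribosomal protein genes lay slightly higher as a list. The median of 82 was 0.23, 78 had a positive difference and 26 (31.7%, beside 9.9% of all genes) were separated as higher, with 0 lower. A wider set, of genes whose names begin like those of ribosomal proteins, was also summed. Its share of the signal was 6.11 to 6.42% in EAP with ENU and 5.15, 6.29 and 4.51% in transplanted wild type 1 to 3. A list of chromosome 18 genes that correspond to human 5q, with 41 tested, did not include Cd14. In it, 6 were separated as higher and 6 as lower (14.6% each, beside 9.9 and 8.61% of all genes). Its median of 0.07 was 0.01 without transplanted wild type 3. Of 45 genes recurrently mutated in myeloid neoplasms, 12 were separated as higher (26.7%, beside 9.9% of all genes) and 1, Trp53, as lower (2.22%, beside 8.61%). Without transplanted wild type 3, 15 were separated as higher (33.3%) and 7 as lower (15.6%), beside 16.8% of all genes in each direction. Runx1, a transcription factor of stem cell emergence, was 48.4, 53 and 21.7 against 56.5, 54.5 and 55.8, a separation of little more than 1 unit from the nearest control.

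Against EAP without ENU, a group in which EAP 1 carries the conflicting transplant label, no gene passed by limma (0%), and 617 of 11730 had an unadjusted p under 0.05 (5.26%). Sdpr (1.88), Pf4 (1.69) and Ccr2 (2.30) had an adjusted p of 0.696 each, the smallest in that comparison. Against untransplanted wild type, 59 genes passed (0.503%), 32 higher (0.273%) and 27 lower (0.23%). This contrast adds transplantation to the other differences, and both comparisons share the EAP with ENU libraries with the main one. The summed level of 4 sex-linked genes was 177.8, 0.04154 and 183.7 in untransplanted wild type 1 to 3. It was 82.52, 68.87 and 55.37 in EAP, 139.8, 123.8 and 134.4 in EAP with ENU and 116.4 to 151.6 in transplanted wild type. Of the 4, 3 were separated as higher in EAP with ENU than in EAP, beside 12.7% of all genes in either direction. Whether the sex of the mice differed was not tested. Among the genes described above, Cd14 (3.52, adjusted p = 0.00829), Mettl7a3 (2.58, 0.00946), Psma8 (2.11, 0.0301), Ccr2 (2.75, 0.0181) and Ctsg (3.65, 0.0108) rose against untransplanted wild type by limma. So did Prtn3 (2.18, 0.047), Elane (4.95, 0.0349), Ms4a3 (4.58, 0.0349), Trem3 (4.1, 0.0301) and Pf4 (2.1, 0.0349). Of the 36 tested members of the primary granule list, 6 passed as higher in this contrast, beside 0.273% of all genes. Ddx4 (-3.08, 0.00829), Lipo1 (-2.07, 0.00943), Ifit3 (-2.33, 0.0181), Ifit1 (-1.70, 0.0377), Gbp6 (-2.91, 0.0349) and Ets1 (-1.95, 0.0377) fell. Selp, encoding the adhesion protein P-selectin, had the smallest adjusted p (0.00122), at 17.6, 10.6 and 18.6 in untransplanted wild type and 160, 164 and 174 in EAP with ENU. Transplanted wild type had 147, 111 and 135, so both transplanted groups were high. Most of the other genes just named also differed between the wild type groups, in the same direction. Mean levels in untransplanted and transplanted wild type were 34.2 and 499 for Elane, 70.4 and 317.5 for Ctsg, and 30.2 and 8.83 for Ddx4. Cd14 (1.28 and 0.913) and Mettl7a3 (0 in both) did not.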

How the data were processed

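Per the labels' protocols, RNA came from a Trizol extraction and went into TruSeq Stranded mRNA libraries. The submitters' processing notes name bcl2fastq, FastQC, TopHat, SAMtools, edgeR and the mm10 build. How these tools were set, and how reads were counted, annotated and scaled, was not given in the sources used here, so the deposited LSK table was treated as a normalised signal. The authors call its values CPM, yet the libraries sum to between 808377 and 1437201. The test had been chosen for CPM, and it also suits a normalised signal on a log scale. No step of whole reads was found, so depth is unknown.

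The 12 LSK libraries, in 4 groups, were fitted together on log2(value + 1) with limma 3.58.1 (trend) in R 4.3.3, and the test was tried on simulated data. A gene was kept if 3 libraries or more reached a value of 1, which left 11730 of 11740. Differences are on the log2(value + 1) scale, which understates those of low genes. P-values were Benjamini-Hochberg adjusted over all genes tested, with a threshold of 0.05. Separated means that the 3 against 3 values do not overlap; an exact permutation test of 3 against 3 cannot go below 0.1. Positions came from GENCODE M21 (11307 genes matched) and promoters from RefSeq (GRCm38.p6, 250 bases before to 50 after the start).

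The genes named were Trp53, Egr1, Apc and up to 12 per direction, first those that passed and then those with the smallest p, with no overlap and a higher group averaging 5 or more. Of each list described, members with the smallest p, no overlap or a defining role were named. Mettl7a1, Mettl7a2, a few further list members and the promoter motifs were chosen after their values were seen. A few genes within this rule are left out here. The groups compared and the gene lists were chosen with earlier results of these data known. Python 3.11.15, pandas 2.3.3, numpy 2.4.6 and matplotlib 3.10.9 were used.

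The fit was repeated with 0.1 as the pseudocount, without the filter, after median-of-ratios rescaling, with a replicate block, on only the groups compared, without the variance trend, without each library of the groups compared in turn, and without EAP 1. Fits without, or with a term for, the 3 libraries that stand apart were added after seeing the data.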

Additional observations from a re-analysis of the deposited data

Results flagged for a closer look

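Sdpr, a caveolar protein gene of platelets and stromal cells, lay above transplanted wild type in all 3 EAP with ENU libraries (8.89, 21.4 and 18.1 against 6.71, 6.04 and 6.29, a log2 difference of 1.14). In all 3 EAP libraries without ENU it lay below the same controls, at 2.52, 3.27 and 4.61. The difference between both engineered groups was 1.88 (limma, adjusted p = 0.696) and did not pass. Groups of 3 libraries are too small for the check on single outlying libraries, which was not made.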

How the results depend on the processing

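For EAP with ENU against transplanted wild type, where 2 genes passed, the count stayed at 2 with no filter, with median-of-ratios rescaling, without a variance trend and without EAP 1. It was 1 with a pseudocount of 0.1 (Mettl7a3) and 6 with only the 2 groups compared. It was 6 without the 3 libraries that stand apart and 9 with a term for them, where Trp53 passed at an adjusted p of 0.049. Leaving out 1 library gave 0 to 2. Against EAP, 0 genes passed in every setting except 1 gene without the 3 libraries that stand apart (smallest adjusted p 0.0484). Against untransplanted wild type, 59 genes passed, with 37 at a pseudocount of 0.1, 2405 without the 3 libraries that stand apart and 1397 with a term for them; leaving out 1 library gave 1 to 146, with 1 without untransplanted wild type 1 or EAP with ENU 2 or 3, 10 without untransplanted wild type 3 and 12 without EAP with ENU 1. The cause was not tested. Rescaling moved the median of all genes by under 0.1.

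The replicate block left 1 gene (Cd14, adjusted p = 0.0427) against transplanted wild type, 0 against EAP and 10 against untransplanted wild type. The numbers do not pair the libraries: deviations of same-numbered libraries correlated at 0.072, -0.17 and -0.038, and the libraries share only a number.

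Of the genes named, Egr1, Apc, Mettl7a1, Mdm2, Kit, Cd48 and S100a8 changed sign under at least 1 alternative. Leaving out 1 library gave -1.163 to 0.035 for Egr1, -0.027 to 0.288 for Mettl7a1, -0.090 to 0.084 for Mdm2, -0.274 to 0.150 for Kit and -0.029 to 0.168 for Cd48. Without the 3 libraries that stand apart Mettl7a1 was -0.027 and Mdm2 -0.090. A term for them gave -0.083 for Apc, -0.021 for Mettl7a1, -0.127 for Mdm2 and 0.291 for S100a8. Rescaling gave -0.012 for Mdm2. The cause was not tested. With unknown depth, values near 1 have no counting error attached.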

Other observations

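Chaperone and protein folding genes were also separated more often as higher than as lower. Of 29 heat shock chaperone genes, 7 were separated as higher (24.1%, beside 9.9% of all genes) and 0 as lower. The list's median was 0.20, and 0.10 without EAP with ENU 2. Of 37 genes of the unfolded protein and integrated stress response, 9 were separated as higher (24.3%) and 1 as lower (2.7%, beside 8.61% of all genes). That list's median was 0.12, with 0.29 without EAP with ENU 1 and 0.04 without EAP with ENU 2. Hyou1, a chaperone of the endoplasmic reticulum, was 13.9, 19.3 and 2.93 against 37, 59 and 42.7 (2.13 ± 0.88). Cebpb, a transcription factor of emergency granulopoiesis and stress, was 11.7, 0.908 and 17 against 41.1, 75.3 and 44.8 (2.80 ± 1.07). In both genes the lowest control lay well below the others. Untransplanted wild type ran from 1.16 to 54.6 for Cebpb and overlapped EAP with ENU. None of these genes passed.

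Of 67 mitosis genes, 7 were separated as higher (10.4%, beside 9.9% of all genes) and 0 as lower (beside 8.61%). Of 63 DNA replication genes, 3 were separated in each direction (4.76%, under the share of all genes in both). Erythroid markers were separated as higher in 6 of 40 (15%, beside 9.9%) and lower in 0 (beside 8.61%). The counts moved with transplanted wild type 3. Without it, 14 of the chaperone genes (48.3%), 12 of the unfolded protein and integrated stress response (32.4%), 19 of the mitosis genes (28.4%), 9 of the replication genes (14.3%) and 10 of the erythroid markers (25%) were separated as higher, beside 16.8% of all genes.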
